A study of Arabidopsis thaliana with 4 samples.

Results

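The genotype by light interaction asks, gene by gene, whether the response of Arabidopsis thaliana shoots to low R:FR was the same in Col-0 and in a line whose labels name mutations in HFR1 and PIL1. It was measured as the log2 response to low R:FR in hfr1 pil1 minus the log2 response in Col-0, with 10.8 normalized counts added to every value. A positive difference means a response that is higher, or less negative, in hfr1 pil1. All 20116 loci with a mean over the 4 deposited columns of at least 10.8 normalized counts were taken, of 33558 loci in the table. The rule used no measured response, and 20019 of these loci could be tested.

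Shoots of 7-day-old seedlings on sugar-free agar at 22 °C were sequenced in 4 groups. The groups were Col-0 after 7 d of continuous white light, Col-0 after 3 d of white light and 96 h of low R:FR, and hfr1-4pil1-2, called hfr1 pil1 below, in each of the same lights. White light had 30 to 50 µE at an R:FR of 1.2, and the shade light held red at 13 µE, blue at 1.23 µE and far-red at 20 µE. The amount of light and its R:FR thus changed together and cannot be told apart.

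Plants sense neighbours by the low ratio of red to far-red light that leaves reflect. Phytochrome B, active in red-rich light, holds back the PIF transcription factors, and low R:FR relieves this. PIFs bind G-box and related E-box sequences and switch on genes of auxin synthesis and elongation. HFR1 and PIL1 are helix-loop-helix proteins that shade itself induces. HFR1 pairs with PIFs into complexes that cannot bind DNA, so it acts as a brake on the shade response, and PIL1 has also been described to bind PIFs.

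The deposited Col-0 columns are means, which resolved into whole reads of 2 libraries each, and each mutant column is 1 library. The 6 libraries held 7358583 to 14684713 recovered reads. Nothing says that the libraries of a group came from separate plants, so the p-values reflect library-to-library spread alone, possibly technical, and the test takes the single mutant libraries to be as variable as those of Col-0. Between the paired Col-0 libraries the mean chi-square per locus was 2.41 (white light) and 2.59 (low R:FR), above the 1 of pure read sampling. The 97 untested loci, among them most light-harvesting genes, were too abundant in Col-0 to be split into libraries. The hfr1 pil1 white light library stood apart in the tissue markers. The summed level of 25 root genes was 4291 normalized counts there and 7352 to 11639 in the other libraries, none of the 25 being at 0 in any library. In bulk samples fewer cells of a type and less RNA per cell cannot be told apart.

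At most loci the 2 responses differed little. Over the 20116 loci the difference had a median of 0.0019, with the 5th and 95th percentiles at -0.54 and 0.65, and 85.8% lay within 0.5 of 0 on the log2 scale. By size alone 354 loci (1.76%) were at least 2-fold higher in hfr1 pil1 and 120 (0.597%) at least 2-fold lower. edgeR's quasi-likelihood test of the interaction, with Benjamini-Hochberg adjustment over all 20019 loci, called 763 (3.81%) at an adjusted p under 0.05, of which 398 (1.99%) were higher and 365 (1.82%) lower. A difference printed with an SE is edgeR's fitted log2 value, and every other one has the 10.8 added. Of the called loci 266 were also past 2-fold, and 208 tested loci past 2-fold were not called. DESeq2 with the authors' size factors called 190 loci and gave no adjusted p to 248 of the 763, so a call that DESeq2 did not keep was either not made or had no adjusted p. It gave an adjusted p to 6823 of the 20019 loci, and to 8375 with its own size factors. A list with 0 calls by DESeq2 can thus include members that it could not call, and their number is not given. The test on the response itself called 48.3% of loci in Col-0 and 36.9% in hfr1 pil1, where each side of the contrast is 1 library. The genotypes were called different at 2.48% of loci in white light and at 2.39% under low R:FR.

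**Figure D1:**
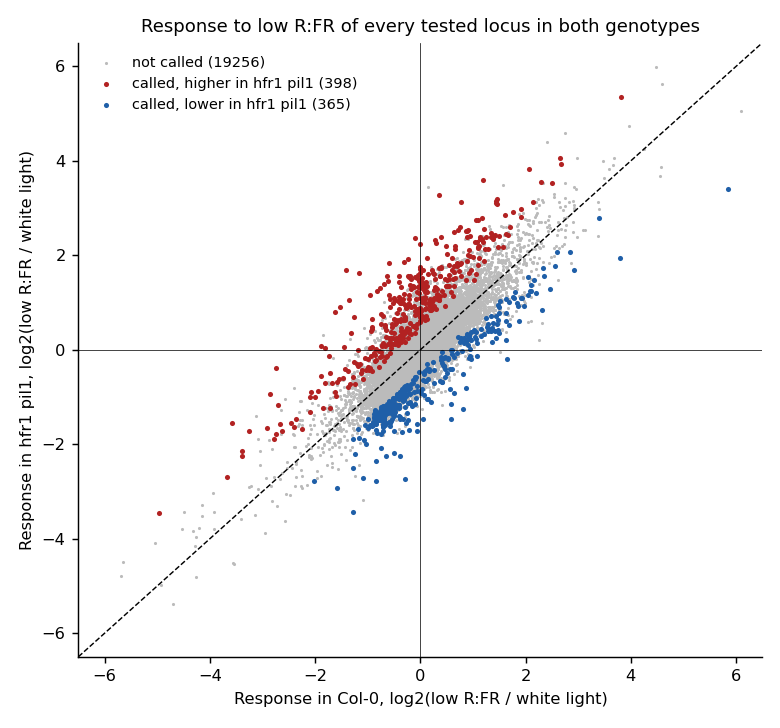
Each point is 1 of the 20019 tested loci, with its log2 response to low R:FR in Col-0 on the horizontal axis and in hfr1 pil1 on the vertical axis, both with 10.8 normalized counts added. The 398 loci called higher lie above the dashed line of equal response and the 365 called lower lie below it, and both run along the line on either side of 0.

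The called loci took 6 forms. The forms were set by edgeR's fitted responses. Among loci called higher, 171 were higher in low R:FR in both genotypes and more so in hfr1 pil1. Another 157 fell in Col-0 but rose in the mutant, and 70 were lower in both genotypes but less so in hfr1 pil1. Among those called lower, 222 were lower in low R:FR in both genotypes and more so in hfr1 pil1, 84 were higher in both genotypes but less so in hfr1 pil1, and 59 were higher in Col-0 and lower in hfr1 pil1. In 486 of the 763 both responses were called, in 117 only that of Col-0 and in 160 only that of hfr1 pil1. The 2 directions differed in where the genotypes stood apart. Of the loci called higher, 250 had their larger genotype gap in white light and 148 under low R:FR. Of those called lower 94 had it in white light and 271 under low R:FR. The same split over all tested loci was not counted. Over all 20019, hfr1 pil1 was called higher at 116 and lower at 380 in white light. Under low R:FR it was called higher at 198 and lower at 280. The gaps are edgeR's fitted values as well. The forms and gaps use the same libraries as the call and describe it.

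HFR1 and PIL1 transcripts themselves were both called lower. HFR1 (AT1G02340) stood at 22.2 and 33.6 normalized counts in white-grown Col-0, 2046 and 2359 in Col-0 under low R:FR, 189 in white-grown hfr1 pil1 and 2112 in hfr1 pil1 under low R:FR. It was thus about equal in both genotypes in low R:FR and higher in hfr1 pil1 in white light, and its rise was smaller in hfr1 pil1 by edgeR (-2.87 ± 0.23 SE, edgeR, Benjamini-Hochberg adjusted p = 6.66e-05). PIL1 (AT2G46970) stood at 12.7 and 20.4 normalized counts in the white light libraries of Col-0, 241 and 313 in its low R:FR libraries, 220.3 in the mutant white light library and 1574 in the mutant low R:FR library. The mutant libraries were above Col-0 in both lights, and the fitted difference was -1.28 ± 0.32 SE, edgeR, Benjamini-Hochberg adjusted p = 0.0448. That call was lost by DESeq2 (adjusted p from 5.87e-05 to 0.193 over all alternatives run), without Col-0 white light replicate 1 and without Col-0 low R:FR replicate 2, and the sign of the PIL1 difference turned to 0.34 with 5 times the offset against -0.62. Neither transcript was low in the libraries labelled hfr1 pil1, so transcript level does not check those labels, and a mutated gene can still be transcribed.

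Of all 20019 tested loci, 4602 were called higher under low R:FR in Col-0 and 3678 in hfr1 pil1. Among 13 tested regulators known from the shade response these numbers were 10 and 12. In the interaction 4 were called higher and 2 (HFR1 and PIL1) lower, and the list's median difference was 0.52 against 0.0019 over all loci. HB-2 (AT4G16780), the homeodomain gene also known as ATHB2, stood at 55.6 and 80.3 normalized counts in white-grown Col-0, 473 and 510.0 in Col-0 under low R:FR, 60.8 in white-grown hfr1 pil1 and 1079.5 in hfr1 pil1 under low R:FR. Its level in the mutant low R:FR library was above both Col-0 libraries while white light levels overlapped, and the response was higher by 1.25 ± 0.24 SE, edgeR, Benjamini-Hochberg adjusted p = 0.0142. Its relative HB4 (AT2G44910) stood at 41.3 and 49.1 normalized counts in the white light libraries of Col-0, 68.2 and 54.8 in its low R:FR libraries, 40.0 in the mutant white light library and 139.6 in the mutant low R:FR library (1.32 ± 0.33 SE, edgeR, Benjamini-Hochberg adjusted p = 0.0448). The low R:FR response of HB4 was called in hfr1 pil1 and missed the threshold in Col-0, and the interaction call was lost without Col-0 white light replicate 2 or Col-0 low R:FR replicate 2. HAT2 (AT5G47370), another gene of that family, went from 196 and 212 to 476 and 497 normalized counts in Col-0, and from 194 to 744 in hfr1 pil1 (0.68 ± 0.15 SE, edgeR, Benjamini-Hochberg adjusted p = 0.0283). PIL2 (AT3G62090), a PIF relative also named PIF6, stood at 106 and 121 normalized counts in the white light libraries of Col-0, 136 and 107 in its low R:FR libraries, 97.0 in the mutant white light library and 261 in the mutant low R:FR library (1.31 ± 0.25 SE, edgeR, Benjamini-Hochberg adjusted p = 0.0116), and only the mutant low R:FR library was above the rest. By DESeq2 with the authors' size factors 1 of these 4 was called, HB-2, and HB4 and PIL2 had no adjusted p. Of the 5 tested PIF genes 0 were called by edgeR and 0 by DESeq2, with 2 at an unadjusted p under 0.05.

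Of 15 tested genes of auxin synthesis and transport, 1 was called, higher: YUC9 (AT1G04180), which encodes a flavin monooxygenase of the last step of auxin synthesis. It stood at 39.7 and 31.2 normalized counts in white-grown Col-0, 55.9 and 53.3 in Col-0 under low R:FR, 25.4 in white-grown hfr1 pil1 and 137 in hfr1 pil1 under low R:FR (1.83 ± 0.35 SE, edgeR, Benjamini-Hochberg adjusted p = 0.0126), so that the mutant low R:FR library was the highest of the 6 and the mutant white light library the lowest. YUC8 (AT4G28720) went from 21.4 and 32.4 to 174 and 184 normalized counts in Col-0, and from 21.6 to 361 in hfr1 pil1 and missed the threshold (1.28 ± 0.35 SE, edgeR, Benjamini-Hochberg adjusted p = 0.0658). Under low R:FR alone it was called higher in hfr1 pil1. The YUC9 call had no adjusted p by DESeq2 under either scaling. Of 24 auxin-responsive genes 0 were called by edgeR and 0 by DESeq2, 8 had an unadjusted p under 0.05, all higher, and the median difference was 0.33 with 17 of 24 above 0. Among them IAA29 (AT4G32280), an auxin signalling repressor gene, went from 6.35 and 8.39 to 353 and 435 normalized counts in Col-0, and from 4.62 to 963 in hfr1 pil1. In the same fit its difference was 1.92 ± 0.68 SE, edgeR, Benjamini-Hochberg adjusted p = 0.163. ACS8 (AT4G37770), an ethylene synthesis gene, went from 2.38 and 2.4 to 82.3 and 72.9 normalized counts in Col-0, and from 1.54 to 285 in hfr1 pil1 (2.47 ± 1.00 SE, edgeR, Benjamini-Hochberg adjusted p = 0.234). Both were called higher in hfr1 pil1 in low R:FR alone, and their white light levels rest on few reads. With no filter on low values 2 auxin-responsive genes were called, and 3 without Col-0 white light replicate 1, of which 2 were higher.

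**Figure D2:**
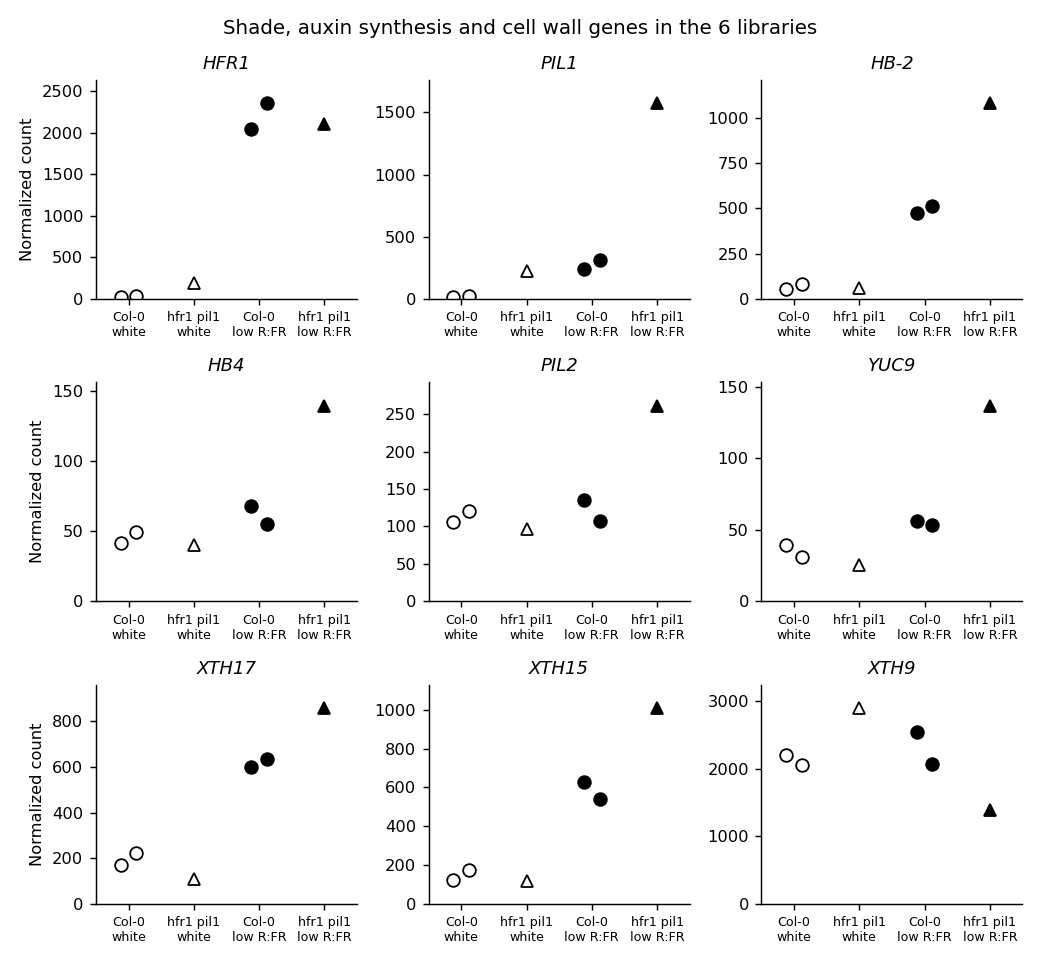
Normalized counts of 9 shade, auxin synthesis and cell wall genes in the 6 libraries, on axes that start at 0, with circles for the 2 Col-0 libraries of a light, triangles for the single hfr1 pil1 library, open for white light and filled for low R:FR. In HB-2, HB4, PIL2, YUC9, XTH17 and XTH15 the mutant low R:FR library is the highest of the 6, and in XTH9 it is the lowest.

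Xyloglucan endotransglucosylase genes (XTH), whose products remodel the cell wall as cells grow, split in 2 directions. Of 22 tested wall-loosening genes 4 were called higher (XTH15, XTH17, XTH19 and XTH31) and 3 lower (XTH9, XTH16 and XTH24), and no expansin gene of the list was called. XTH17 (AT1G65310) stood at 170.0 and 224 normalized counts in white-grown Col-0, 601 and 636 in Col-0 under low R:FR, 110.1 in white-grown hfr1 pil1 and 858 in hfr1 pil1 under low R:FR (1.29 ± 0.20 SE, edgeR, Benjamini-Hochberg adjusted p = 0.00489). It rose in both genotypes and was below both Col-0 libraries in mutant white light and above both in mutant low R:FR. XTH15 (AT4G14130) went from 124 and 173 to 629 and 543 normalized counts in Col-0, and from 119 to 1009 in hfr1 pil1 (1.07 ± 0.23 SE, edgeR, Benjamini-Hochberg adjusted p = 0.0223). XTH9 (AT4G03210) stood at 2198 and 2049.6 normalized counts in the white light libraries of Col-0, 2543 and 2075 in its low R:FR libraries, 2899 in the mutant white light library and 1392 in the mutant low R:FR library (-1.18 ± 0.15 SE, edgeR, Benjamini-Hochberg adjusted p = 0.00207). XTH9 fell in hfr1 pil1, while the change in Col-0 missed the threshold. XTH16 (AT3G23730) and XTH24 (AT4G30270) rose in both genotypes and less so in hfr1 pil1, with differences of -0.87 ± 0.14 SE and -0.54 ± 0.12 SE by edgeR. TCH4 (AT5G57560), known as XTH22, went from 146 and 94.7 to 861 and 418 normalized counts in Col-0, and from 130.2 to 199 in hfr1 pil1, and its difference of -1.77 ± 0.58 SE, edgeR, Benjamini-Hochberg adjusted p = 0.128 was not called. XTH genes are close relatives, so counts of single members may mix. Of the 7 calls DESeq2 with the authors' size factors kept 2, XTH17 and XTH9, did not make 4 and gave 1 no adjusted p.

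The motifs that PIFs bind were counted as a description, with no test. The 300 bases before the annotated gene start were read from the RefSeq genome (TAIR10.1, matched by locus tag to the files, whose notes name TAIR10) for 19641 tested loci. CACATG or its complement CATGTG, called the CACATG motif below, was present in 13.1% of all of them, in 18.3% of all loci called higher and in 13.0% of those called lower. CACGTG, the G-box, was present in 8.10% of all, 14.5% of those called higher and 7.46% of those called lower. Across the 6 forms the share with the CACATG motif was 26.3% (45 of 171) in loci higher in both genotypes and more so in hfr1 pil1, 20.7% (12 of 58) in those higher in Col-0 and lower in hfr1 pil1, 14.7% (10 of 68) in those that fell less in hfr1 pil1, 13.1% (11 of 84) in those that rose less, and 10.9% (24 of 220) in those that fell more. It was present in 17 of 155 loci that were lower under low R:FR in Col-0 but higher in the mutant. The 2 forms with the highest shares were thus called in opposite directions. In the 1000 bases before the start the CACATG motif was present in 38.2% of all and 53.2% of those 171, and the G-box in 16.1% and 23.4%. The G-box reads the same on both strands, neither motif contains the other, and the core ACGTG of the G-box is shared with abscisic acid response elements. A match describes these letters only. The promoters of YUC9 and XTH17 are shown as 2 named genes that hold the CACATG motif and rose more in hfr1 pil1, 5′ to 3′ on the strand of the gene, with CACATG or CATGTG in capitals.

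YUC9, chr1:1104193-1104492, + strand: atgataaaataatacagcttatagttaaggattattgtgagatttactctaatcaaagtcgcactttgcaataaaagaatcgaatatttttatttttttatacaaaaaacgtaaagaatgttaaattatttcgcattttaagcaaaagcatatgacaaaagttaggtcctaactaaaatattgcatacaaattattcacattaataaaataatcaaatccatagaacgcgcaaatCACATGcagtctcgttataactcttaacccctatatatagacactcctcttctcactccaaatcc

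XTH17, chr1:24256754-24257053, + strand: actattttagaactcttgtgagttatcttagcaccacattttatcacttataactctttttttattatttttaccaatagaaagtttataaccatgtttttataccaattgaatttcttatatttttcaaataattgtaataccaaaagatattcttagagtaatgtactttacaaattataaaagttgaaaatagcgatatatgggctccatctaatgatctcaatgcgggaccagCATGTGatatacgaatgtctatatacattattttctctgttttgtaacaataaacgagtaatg

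The CACATG motif began 65 bases before the gene start in YUC9 and 63 bases before it in XTH17.

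Of all 20019 tested loci, 5058 were called lower under low R:FR in Col-0 and 3710 in hfr1 pil1. Of 24 tested flavonoid and anthocyanin genes 19 and 17 were, and 4 were called higher in each genotype. In the interaction 8 were called higher and 0 lower, 19 of 24 had a difference above 0, and the median difference was 0.76. Between the genotypes, 6 were called lower in hfr1 pil1 in white light and 5 higher under low R:FR. Of all 20019 tested loci these calls numbered 380 and 198. TT4 (AT5G13930), chalcone synthase, the entry enzyme of the pathway, stood at 10432 and 10014 normalized counts in white-grown Col-0, 920.4 and 771 in Col-0 under low R:FR, 7699 in white-grown hfr1 pil1 and 2628 in hfr1 pil1 under low R:FR. It fell in both genotypes, with the mutant library below both Col-0 libraries in white light but above both under low R:FR, and the difference was 2.04 ± 0.14 SE, edgeR, Benjamini-Hochberg adjusted p = 2.05e-05. GSTF12 (AT5G17220), the glutathione transferase TT19 of anthocyanin transport, stood at 1131 and 1016 normalized counts in the white light libraries of Col-0, 24.6 and 23.5 in its low R:FR libraries, 775 in the mutant white light library and 60.8 in the mutant low R:FR library (1.81 ± 0.28 SE, edgeR, Benjamini-Hochberg adjusted p = 0.00423). The regulators PAP1 (AT1G56650) and MYB111 (AT5G49330), which activate anthocyanin and flavonol genes, fell as well in both genotypes, PAP1 from 234 and 197 to 9.82 and 11.8 normalized counts in Col-0, and from 165 to 29.0 in hfr1 pil1, with a difference of 1.83 ± 0.44 SE. For MYB111 it was 1.36 ± 0.31 SE. The other called members were the enzyme genes F3H (0.96 ± 0.16 SE), FLS1 (0.93 ± 0.14 SE), TT5 (0.93 ± 0.15 SE) and UGT78D2 (0.79 ± 0.15 SE), all of early or flavonol steps or sugar transfer. The late anthocyanin genes DFR and LDOX fell to 55.3 and 69.1 normalized counts in hfr1 pil1 from 1809 and 1353, and their differences of 0.98 ± 0.38 SE and 1.03 ± 0.35 SE were not called (adjusted p = 0.209 and 0.145 by edgeR). With the authors' size factors DESeq2 kept 6 of the 8 calls and gave PAP1 and MYB111 no adjusted p. Leaving out 1 Col-0 library gave 7 to 12, with PAP1 and MYB111 lost without Col-0 low R:FR replicate 2 and PAP1 also without replicate 1 of that group.

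ELIP1 (AT3G22840) and ELIP2 (AT4G14690), early light-induced proteins of the thylakoid, fell in both genotypes, ELIP1 from 802 and 614 to 158 and 179 normalized counts in Col-0, and from 623 to 304 in hfr1 pil1 (1.06 ± 0.22 SE, edgeR, Benjamini-Hochberg adjusted p = 0.0189). ELIP2 went from 285 and 258 to 78.0 and 61.1 normalized counts in Col-0, and from 272 to 162 in hfr1 pil1 (1.21 ± 0.22 SE, edgeR, Benjamini-Hochberg adjusted p = 0.0107). In both the white light levels of the genotypes overlapped and the mutant low R:FR library stayed above Col-0. They were among 4 of 29 photoreceptor and light signalling genes called, all higher. The others were BBX28 (AT4G27310), a B-box protein gene, at 0.98 ± 0.21 SE, and PHYA (AT1G09570), the photoreceptor of far-red light, which went from 914 and 867 to 1814 and 1827 normalized counts in Col-0, and from 873 to 2463 in hfr1 pil1 (0.47 ± 0.11 SE, edgeR, Benjamini-Hochberg adjusted p = 0.0384). By DESeq2 with the authors' size factors 0 of the 4 were called, PHYA having an adjusted p of 0.254 and ELIP2 and BBX28 none. The PHYA call was also lost when any of 3 Col-0 libraries was left out. The G-box was present in 14 of 68 promoters (20.6%) of the called genes that fell less in hfr1 pil1, and in 3.45% to 14.6% of those of the other 5 forms. The promoters of TT4 and ELIP1 are shown as 2 of the 14, with the G-box in capitals.

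TT4, chr5:4488176-4488475, + strand: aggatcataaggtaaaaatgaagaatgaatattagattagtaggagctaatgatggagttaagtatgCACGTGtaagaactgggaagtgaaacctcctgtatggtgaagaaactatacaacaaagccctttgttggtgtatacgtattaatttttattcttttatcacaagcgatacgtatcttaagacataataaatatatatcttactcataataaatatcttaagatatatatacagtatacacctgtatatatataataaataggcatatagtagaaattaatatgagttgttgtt

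ELIP1, chr3:8085670-8085969, - strand: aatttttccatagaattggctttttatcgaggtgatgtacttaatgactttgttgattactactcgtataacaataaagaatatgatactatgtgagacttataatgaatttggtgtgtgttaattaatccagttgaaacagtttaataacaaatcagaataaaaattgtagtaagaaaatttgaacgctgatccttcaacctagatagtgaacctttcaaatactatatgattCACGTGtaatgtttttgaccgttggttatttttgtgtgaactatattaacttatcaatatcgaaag

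The G-box began 233 bases before the gene start in TT4 and 66 bases before it in ELIP1.

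**Figure D3:**
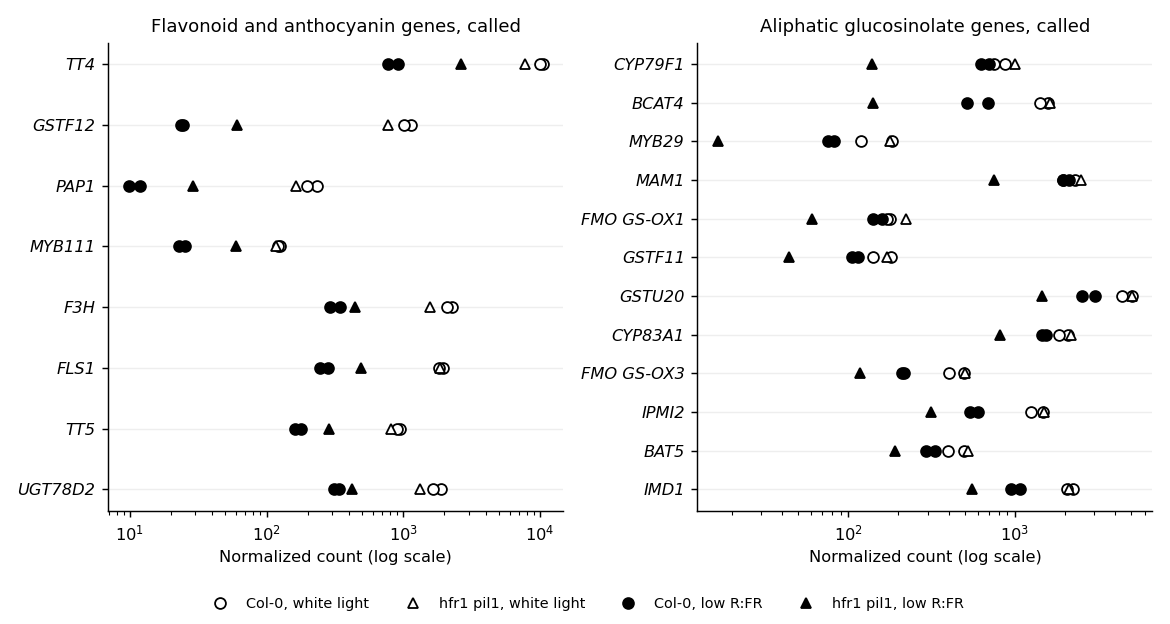
Normalized counts on a log scale of the called flavonoid and anthocyanin genes (left, 8 genes) and the called aliphatic glucosinolate genes (right, 12 genes), with circles for single Col-0 libraries, triangles for hfr1 pil1, open for white light and filled for low R:FR. On the left the filled triangle lies above both filled circles. The open triangle there can lie below both open circles, as in F3H (1556 against 2288 and 2083). On the right the filled triangle is the lowest of the 6 points.

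Aliphatic glucosinolate genes, which make the methionine-derived mustard oil precursors of crucifers, had 21 tested members. Of these 12 were called lower and 0 higher, no member had a difference above 0, and the median difference was -0.97. The mutant low R:FR library was the lowest of the 6 libraries in all 21 genes, and it was called below Col-0 in low R:FR in 13. Over all 20019 tested loci it was the lowest in 4325 and called below Col-0 in low R:FR in 280. In white light no member was called different between the genotypes. CYP79F1 (AT1G16410), which commits chain-elongated methionine to the pathway, stood at 874 and 754 normalized counts in white-grown Col-0, 694 and 629 in Col-0 under low R:FR, 996 in white-grown hfr1 pil1 and 139.6 in hfr1 pil1 under low R:FR (-2.53 ± 0.18 SE, edgeR, Benjamini-Hochberg adjusted p = 2.06e-05). BCAT4 (AT3G19710), of the first step of chain elongation, stood at 1572 and 1406 normalized counts in the white light libraries of Col-0, 691 and 514 in its low R:FR libraries, 1629 in the mutant white light library and 141 in the mutant low R:FR library (-2.23 ± 0.24 SE, edgeR, Benjamini-Hochberg adjusted p = 0.000565). MAM1 (AT5G23010), the condensing enzyme of the same cycle, went from 2293 and 1933 to 2099.9 and 1941 normalized counts in Col-0, and from 2484 to 746 in hfr1 pil1 (-1.67 ± 0.15 SE, edgeR, Benjamini-Hochberg adjusted p = 0.000118). CYP79F1 and BCAT4 fell in both genotypes, and MAM1 fell in hfr1 pil1 and missed the threshold in Col-0. MYB29 (AT5G07690), a transcription factor that activates these genes, went from 182 and 119.9 to 75.5 and 82.3 normalized counts in Col-0, and from 177 to 16.6 in hfr1 pil1 (-2.43 ± 0.47 SE, edgeR, Benjamini-Hochberg adjusted p = 0.0131). Its partner MYB28 (AT5G61420) went from 1008 and 931 to 846 and 855 normalized counts in Col-0, and from 1047 to 731 in hfr1 pil1 and was not called (-0.33 ± 0.12 SE, edgeR, Benjamini-Hochberg adjusted p = 0.191). The side chain gene FMO GS-OX1 (AT1G65860; -1.65 ± 0.23 SE), the transferase genes GSTF11 (AT3G03190; -1.39 ± 0.30 SE) and GSTU20 (AT1G78370; -1.03 ± 0.16 SE), and CYP83A1 (AT4G13770; -1.00 ± 0.13 SE) of core synthesis were further members called. CYP79F1 and CYP79F2 are close neighbours in sequence and place, so their counts may mix. DESeq2 with the authors' size factors kept 7 of the 12 calls, did not make 2 and gave 3 no adjusted p, and leaving out 1 Col-0 library gave 11 to 17.

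Outside the list, genes of linked steps were among the 20 lowest differences of named loci. AK3 (AT3G02020), an aspartate kinase of the route to methionine, went from 1185 and 966 to 551 and 454 normalized counts in Col-0, and from 1154 to 167 in hfr1 pil1 (-1.69 ± 0.22 SE, edgeR, Benjamini-Hochberg adjusted p = 0.00207). TGG2 (AT5G25980), a myrosinase that cleaves glucosinolates, went from 5201 and 4123 to 1582 and 1497 normalized counts in Col-0, and from 5433 to 702 in hfr1 pil1 (-1.35 ± 0.17 SE, edgeR, Benjamini-Hochberg adjusted p = 0.00167). AOP2 (AT4G03060), of the side chain family, had -1.60 ± 0.27 SE. Of 9 tested indole glucosinolate genes 0 were called by edgeR and 0 by DESeq2, with 2 at an unadjusted p under 0.05.

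Of 15 tested chlorophyll synthesis genes 5 were called lower and 0 higher, and the median difference was -0.20. PORB (AT4G27440), a protochlorophyllide reductase, stood at 4639.9 and 4824 normalized counts in white-grown Col-0, 4768 and 4839 in Col-0 under low R:FR, 5752 in white-grown hfr1 pil1 and 3226 in hfr1 pil1 under low R:FR (-0.86 ± 0.11 SE, edgeR, Benjamini-Hochberg adjusted p = 0.00156). It fell in hfr1 pil1, while the change in Col-0 missed the threshold. GSA1 and GSA2, of the route to tetrapyrroles, and the magnesium chelatase subunits ALB1 and CHLI1 fell in both genotypes, with differences of -0.59 ± 0.13 SE, -0.63 ± 0.14 SE, -0.56 ± 0.11 SE and -0.55 ± 0.12 SE. DESeq2 with the authors' size factors kept 2 of the 5 calls and did not make 3, and GSA1 and GSA2 were also lost without Col-0 low R:FR replicate 2. Of 25 photosystem and Rubisco genes only 6 could be tested, and 2 were called. LHB1B1 (AT2G34430), a light-harvesting protein also named LHCB1.4, stood at 4869 and 5757 normalized counts in the white light libraries of Col-0, 7596 and 8383 in its low R:FR libraries, 4733 in the mutant white light library and 1703 in the mutant low R:FR library (-2.06 ± 0.15 SE, edgeR, Benjamini-Hochberg adjusted p = 2.06e-05). It rose in Col-0 and fell in hfr1 pil1. Its near-identical neighbour LHB1B2 (AT2G34420) could not be tested, and reads of the pair may be mixed. By the deposited columns LHB1B2 had a log2 response of 1.22 in Col-0 and 1.26 in hfr1 pil1, a difference of 0.039. LHCB4.3 (AT2G40100) fell in both, from 1516 and 1450.3 to 101 and 109.7 normalized counts in Col-0, and from 1300.0 to 191 in hfr1 pil1 (1.05 ± 0.16 SE, edgeR, Benjamini-Hochberg adjusted p = 0.00423).

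Root genes were measured in these shoot samples, and some led the loci called higher. Of 25 root markers 7 were called higher and 0 lower, 23 had a difference above 0, and the median difference was 0.86. The sum over the list was 7352 and 9843 normalized counts in white-grown Col-0, 11134 and 11416 in Col-0 under low R:FR, 4291 in hfr1 pil1 white light and 11639 in hfr1 pil1 low R:FR. The mutant white light library was the lowest of the 6 in 20 of the 25, and in 4291 of all 20019 tested loci. The Col-0 white light libraries differed from each other too. The part that root RNA in the libraries has in these results was not tested. MRN1 (AT5G42600), marneral synthase, had the highest difference of the named genes that were called, by the deposited columns with 10.8 added (2.78). It stood at 218 and 354 normalized counts in white-grown Col-0, 127 and 116 in Col-0 under low R:FR, 74.7 in white-grown hfr1 pil1 and 252 in hfr1 pil1 under low R:FR (2.94 ± 0.35 SE, edgeR, Benjamini-Hochberg adjusted p = 0.00128). It fell in Col-0 and rose in hfr1 pil1. CYP705A12 (AT5G42580), of the same triterpene pathway, stood at 136 and 239 normalized counts in the white light libraries of Col-0, 167 and 178 in its low R:FR libraries, 37.7 in the mutant white light library and 241 in the mutant low R:FR library (2.74 ± 0.40 SE, edgeR, Benjamini-Hochberg adjusted p = 0.00336). Of the thalianol pathway, THAS1 (AT5G48010), thalianol synthase, was called as well, going from 1422 and 1981 to 1601 and 1309 normalized counts in Col-0, and from 706 to 1598 in hfr1 pil1 (1.39 ± 0.23 SE, edgeR, Benjamini-Hochberg adjusted p = 0.00578). CYP708A2 (AT5G48000) and CYP705A5 (AT5G47990), which modify thalianol, had 1.85 ± 0.25 SE and 1.46 ± 0.21 SE. These 3 lie next to each other on chromosome 5 and form, with AT5G47980 (2.29 ± 0.41 SE), a run of 4 neighbouring tested loci called higher, singled out after the values were seen. There were 3 runs of 3 or more such neighbours and 38 pairs. The root hair wall genes EXT6 (AT2G24980; 1.69 ± 0.27 SE) and PRP1 (AT1G54970; 1.77 ± 0.40 SE) were also among the 20 highest. The EXT6 call was not made by DESeq2 under either scaling, and PRP1 had no adjusted p with the authors' size factors and 0.327 with DESeq2's own. Casparian strip genes of the list (CASP1 to CASP5) were not called, with differences from -0.08 to 0.95. With the authors' size factors DESeq2 kept 4 of the 7 calls, did not make 1 and gave 2 no adjusted p, and leaving out 1 Col-0 library gave 8 to 12.

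Cold, drought and abscisic acid (ABA) genes had 11 of 27 members called higher and 1 lower, COR15B, with a median difference of 0.62. The list summed to 14763 and 16844 normalized counts in white-grown Col-0, 24232 and 23832 in Col-0 under low R:FR, 11616 in hfr1 pil1 white light and 22561 in hfr1 pil1 low R:FR. The mutant white light library was again the lowest, in 18 of the 27 genes and in 4291 of all 20019 tested loci. RAB18 (AT5G66400), an ABA-induced dehydrin, stood at 687 and 716 normalized counts in white-grown Col-0, 1222 and 1397 in Col-0 under low R:FR, 182 in white-grown hfr1 pil1 and 1085 in hfr1 pil1 under low R:FR (1.68 ± 0.15 SE, edgeR, Benjamini-Hochberg adjusted p = 0.00012). It rose in both genotypes, from a lower white light level in hfr1 pil1, and the low R:FR level of hfr1 pil1 was just below Col-0. KIN1 (AT5G15960), a cold- and ABA-induced gene, stood at 376 and 591 normalized counts in the white light libraries of Col-0, 384 and 249.9 in its low R:FR libraries, 138 in the mutant white light library and 518 in the mutant low R:FR library (2.47 ± 0.37 SE, edgeR, Benjamini-Hochberg adjusted p = 0.00409). Its adjacent copy KIN2 (AT5G15970) had a difference of -0.11 ± 0.23 SE, edgeR, Benjamini-Hochberg adjusted p = 0.884, and reads of the pair may be mixed. The phosphatase genes HAI1 (AT5G59220; 1.80 ± 0.29 SE) and HAI2 (AT1G07430; 2.39 ± 0.55 SE), negative regulators of ABA signalling that ABA induces, and the dehydrin LTI30 (AT3G50970; 1.24 ± 0.16 SE) were called as well. The cold-regulated COR15A (AT2G42540) was not (0.22 ± 0.27 SE, edgeR, Benjamini-Hochberg adjusted p = 0.765). DESeq2 with the authors' size factors kept 3 of these 12 calls, did not make 2 and gave 7 no adjusted p. Leaving out 1 Col-0 library gave 8 to 12 called higher, and HAI2 was lost without either Col-0 low R:FR library.

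Seed and late embryo genes were low throughout and lowest in hfr1 pil1 white light. The 7 tested members summed to 473 and 352 normalized counts in white-grown Col-0, 459 and 548 in Col-0 under low R:FR, 135 in hfr1 pil1 white light and 487 in hfr1 pil1 low R:FR, and 2 were called higher, OLEO2 (AT5G40420), an oil body protein gene, and LEA7 (AT1G52690). OLEO2 stood at 55.6 and 31.2 normalized counts in the white light libraries of Col-0, 46.0 and 65.0 in its low R:FR libraries, 6.93 in the mutant white light library and 74.6 in the mutant low R:FR library (3.14 ± 0.61 SE, edgeR, Benjamini-Hochberg adjusted p = 0.0142). LEA7 went from 231 and 216 to 322 and 371 normalized counts in Col-0, and from 73.2 to 314 in hfr1 pil1 (1.48 ± 0.21 SE, edgeR, Benjamini-Hochberg adjusted p = 0.00305). M17 (AT2G41260), another late embryo gene, stood at 206 and 151 normalized counts in white-grown Col-0, 398 and 448 in Col-0 under low R:FR, 9.24 in white-grown hfr1 pil1 and 229 in hfr1 pil1 under low R:FR (3.41 ± 0.40 SE, edgeR, Benjamini-Hochberg adjusted p = 0.0011). HIS1-3 (AT2G18050), a drought-induced linker histone, went from 164 and 158 to 641 and 783 normalized counts in Col-0, and from 67.0 to 1093 in hfr1 pil1 (1.89 ± 0.22 SE, edgeR, Benjamini-Hochberg adjusted p = 0.0011), and unlike M17 it ended above Col-0 in low R:FR. DESeq2 with the authors' size factors gave OLEO2, LEA7 and M17 no adjusted p, and with its own it called LEA7 alone of them. The mutant white light levels of OLEO2 and M17 rest on few reads. The part of seed or seed coat material in these values was not tested.

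**Figure D4:**
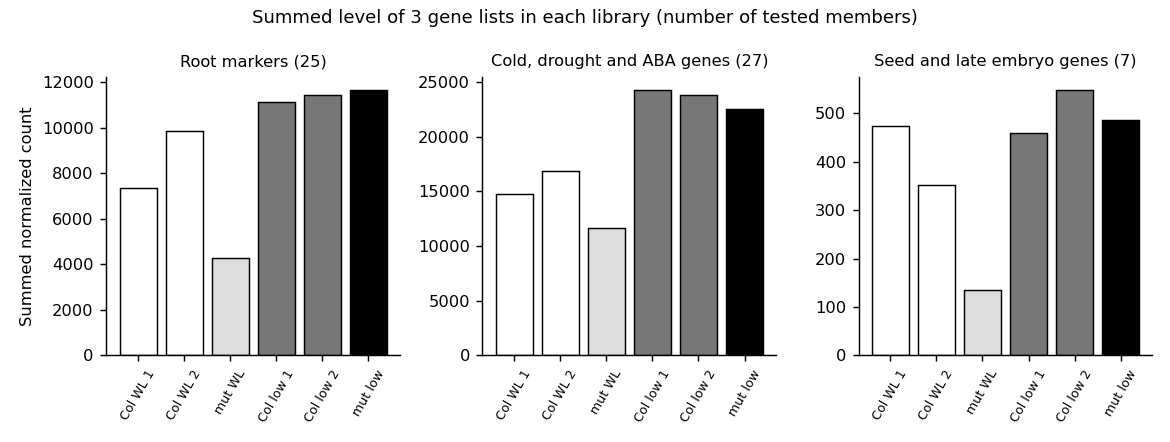
Bars give the summed normalized count of the tested members of the root, cold/drought/ABA and seed lists in each of the 6 libraries (Col, Col-0; mut, hfr1 pil1; WL, white light; low, low R:FR), on axes that start at 0. In each panel the hfr1 pil1 white light library is the lowest of the 6, at 4291, 11616 and 135, while the hfr1 pil1 low R:FR library lies close to Col-0.

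Metal and nutrient genes had calls in both directions. Of 20 iron deficiency genes 3 were called lower and 0 higher, and 1 of 20 had a difference above 0. IRT1 (AT4G19690), the main iron uptake transporter of roots, stood at 921 and 663 normalized counts in white-grown Col-0, 637 and 672 in Col-0 under low R:FR, 1179 in white-grown hfr1 pil1 and 395 in hfr1 pil1 under low R:FR (-1.28 ± 0.21 SE, edgeR, Benjamini-Hochberg adjusted p = 0.00581). FRO2 (AT1G01580), the ferric reductase, went from 542 and 319 to 277 and 259 normalized counts in Col-0, and from 725 to 144 in hfr1 pil1 (-1.62 ± 0.34 SE), and CYP82C4 (AT4G31940) had -1.33 ± 0.30 SE. All 3 were highest in the mutant white light library, and the part of root RNA in them was not tested. The Col-0 white light libraries disagreed on this list, with sums of 18260.4 and 13743 normalized counts, and without replicate 1 the count called lower was 13 instead of 3. DESeq2 with the authors' size factors kept 1, IRT1, and with its own it kept 0. CYP82C4 was also lost without Col-0 low R:FR replicate 2. Among the highest differences, IRT3 (AT1G60960), a zinc and iron transporter, went from 160.4 and 234 to 335 and 345 normalized counts in Col-0, and from 104 to 687 in hfr1 pil1 (1.90 ± 0.24 SE, edgeR, Benjamini-Hochberg adjusted p = 0.00159). FSD1 (AT4G25100), iron superoxide dismutase, fell from 1089 and 1517 to 209 and 133 normalized counts in Col-0, and from 894 to 463 in hfr1 pil1 (1.94 ± 0.30 SE, edgeR, Benjamini-Hochberg adjusted p = 0.00429). The FSD1 call, like those of NEET (AT5G51720; 1.99 ± 0.35 SE) and PYD4 (AT3G08860; 1.69 ± 0.36 SE), was not made by DESeq2. Of 14 phosphate starvation genes, PS2 (AT1G73010), a phosphatase, was called higher, going from 233 and 301 to 38.7 and 24.3 normalized counts in Col-0, and from 129 to 51.1 in hfr1 pil1. DESeq2 gave PS2 no adjusted p, its call was lost without Col-0 low R:FR replicate 2 (adjusted p = 0.0808 by edgeR), and the list had 5 genes called higher without Col-0 white light replicate 1. ATSDI1 (AT5G48850), induced by sulfur deficiency, fell less in hfr1 pil1 (1.57 ± 0.33 SE), a call that DESeq2 did not make. Of 14 nitrogen assimilation genes 0 were called by edgeR and 0 by DESeq2, with 6 at an unadjusted p under 0.05.

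Lipid and surface genes were called in both directions. FAR1 (AT5G22500), here the fatty acyl reductase of suberin, stood at 255 and 258 normalized counts in the white light libraries of Col-0, 416 and 392 in its low R:FR libraries, 233 in the mutant white light library and 1352 in the mutant low R:FR library (1.88 ± 0.14 SE, edgeR, Benjamini-Hochberg adjusted p = 2.8e-05). It rose in both genotypes from close white light levels, and the mutant low R:FR library was far above both Col-0 ones. It was the only one of 11 suberin genes called. LTP2 (AT2G38530), a lipid transfer protein of the epidermis, went from 1175 and 1274 to 1182 and 1162 normalized counts in Col-0, and from 1399 to 3276 in hfr1 pil1 (1.29 ± 0.11 SE, edgeR, Benjamini-Hochberg adjusted p = 0.000118). LTP3 (1.58 ± 0.30 SE) and LTP4 (2.03 ± 0.45 SE), adjacent copies, were called too, though LTP4 lost the call without Col-0 low R:FR replicate 2. These LTP genes were the 3 calls among 17 tested wax and lipid transfer genes, where 3 others were lower at an unadjusted p under 0.05. Of the 18 members at the filter 4 had a difference above 0, and the median was -0.09. DESeq2 kept LTP2 and gave LTP3 and LTP4 no adjusted p. CDEF1 (AT4G30140), a cutinase, fell further in hfr1 pil1, from 1013 and 907 to 642 and 712 normalized counts in Col-0, and from 1252 to 268 in hfr1 pil1 (-1.71 ± 0.15 SE, edgeR, Benjamini-Hochberg adjusted p = 0.000118).

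Hormone and sugar genes gave single calls. ST2A (AT5G07010), a sulfotransferase that inactivates hydroxyjasmonate, stood at 46.1 and 39.6 normalized counts in white-grown Col-0, 680.3 and 804 in Col-0 under low R:FR, 40.8 in white-grown hfr1 pil1 and 2105 in hfr1 pil1 under low R:FR (1.60 ± 0.27 SE, edgeR, Benjamini-Hochberg adjusted p = 0.00687). It rose in both genotypes, and the mutant low R:FR library was well above both Col-0 ones. VSP1 (AT5G24780), a jasmonate-induced storage protein, went from 383 and 586 to 409 and 264 normalized counts in Col-0, and from 190.2 to 386 in hfr1 pil1 and was called higher (edgeR, Benjamini-Hochberg adjusted p = 0.0404), but not by DESeq2 nor without Col-0 low R:FR replicate 2. CKX5 (AT1G75450), a cytokinin oxidase, went from 149 and 126 to 346 and 339 normalized counts in Col-0, and from 101 to 574 in hfr1 pil1 (1.21 ± 0.19 SE, edgeR, Benjamini-Hochberg adjusted p = 0.00425). KDR (AT1G26945), a small helix-loop-helix growth regulator, stood at 108 and 95.9 normalized counts in the white light libraries of Col-0, 78.0 and 92.4 in its low R:FR libraries, 83.2 in the mutant white light library and 173 in the mutant low R:FR library (1.34 ± 0.26 SE, edgeR, Benjamini-Hochberg adjusted p = 0.0126) and was the 1 of 20 brassinosteroid and growth genes called. AT5G14920, a gibberellin-regulated gene of the GASA family, rose less in hfr1 pil1 (-0.56 ± 0.12 SE, edgeR, Benjamini-Hochberg adjusted p = 0.0225), and was 1 of 18 gibberellin genes called. That call was not made by DESeq2 and was lost without Col-0 low R:FR replicate 2 (adjusted p = 0.052 by edgeR). DIN10 (AT5G20250), induced by darkness and sugar starvation, rose less as well, from 638 and 759.9 to 5051 and 5686 normalized counts in Col-0, and from 971 to 3175 in hfr1 pil1 (-1.24 ± 0.15 SE, edgeR, Benjamini-Hochberg adjusted p = 0.0013). BT4 (AT5G67480), a BTB domain protein gene, went from 321 and 349 to 961 and 801 normalized counts in Col-0, and from 399.7 to 449 in hfr1 pil1 (-1.24 ± 0.18 SE, edgeR, Benjamini-Hochberg adjusted p = 0.00306). It rose in Col-0, and the change in hfr1 pil1 missed the threshold. EXL5 (AT2G17230), of the EXORDIUM-like family, went from 187 and 189 to 1125 and 813 normalized counts in Col-0, and from 236 to 431 in hfr1 pil1 (-1.51 ± 0.26 SE, edgeR, Benjamini-Hochberg adjusted p = 0.00687). In all 2 of 18 jasmonate genes, 1 of 16 cytokinin genes and 1 of 23 starvation and senescence genes were called. DESeq2 gave KDR no adjusted p under either scaling, and CKX5 none with the authors' size factors.

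In the clock, CCA1 (AT2G46830), a morning regulator, fell in Col-0 and was called higher (0.85 ± 0.18 SE), and PRR3 (AT5G60100) was called lower (-0.64 ± 0.15 SE), out of 23 genes. Both calls were lost by DESeq2, and PRR3 also without either Col-0 low R:FR library. Of 18 flowering genes 0 were called by edgeR and 0 by DESeq2, with 1 at an unadjusted p under 0.05. FT (AT1G65480), the florigen, had a difference of 0.05 ± 0.33 SE with levels of 18.3 and 21.6 normalized counts in the white light libraries of Col-0, 584 and 566 in its low R:FR libraries, 16.9 in the mutant white light library and 516 in the mutant low R:FR library. FPF1 (AT5G24860), FLOWERING PROMOTING FACTOR 1, had the highest difference of any list member, 3.31, and was singled out after its values were seen. It stood at 0 and 1.2 normalized counts in the white light libraries of Col-0, 1.23 and 2.35 in its low R:FR libraries, 0.77 in the mutant white light library and 116 in the mutant low R:FR library. Its fitted difference was 5.41 ± 2.51 SE, edgeR, Benjamini-Hochberg adjusted p = 0.308. The other 5 libraries hold almost no reads of it. Heat shock genes had 1 call of 8, HSP70 (0.87 ± 0.17 SE), not made by DESeq2 with the authors' size factors. Of 16 cell division genes 0 were called by edgeR and 0 by DESeq2, with 6 at an unadjusted p under 0.05. All 16 differences were below 0 (median -0.31). The mutant white light library was the highest of the 6 in 15 of the 16 and in 4492 of all 20019 tested loci. Of 13 salicylic acid and immunity genes and 17 hypoxia genes 0 were called by edgeR and 0 by DESeq2, with 4 and 1 at an unadjusted p under 0.05, and 5 hypoxia genes were called lower without Col-0 white light replicate 1. Of 9 tested reference transcripts 0 were called by edgeR, 0 by DESeq2 and 0 at an unadjusted p under 0.05. The median was -0.01 over the 11 at the filter.

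**Figure D5:**
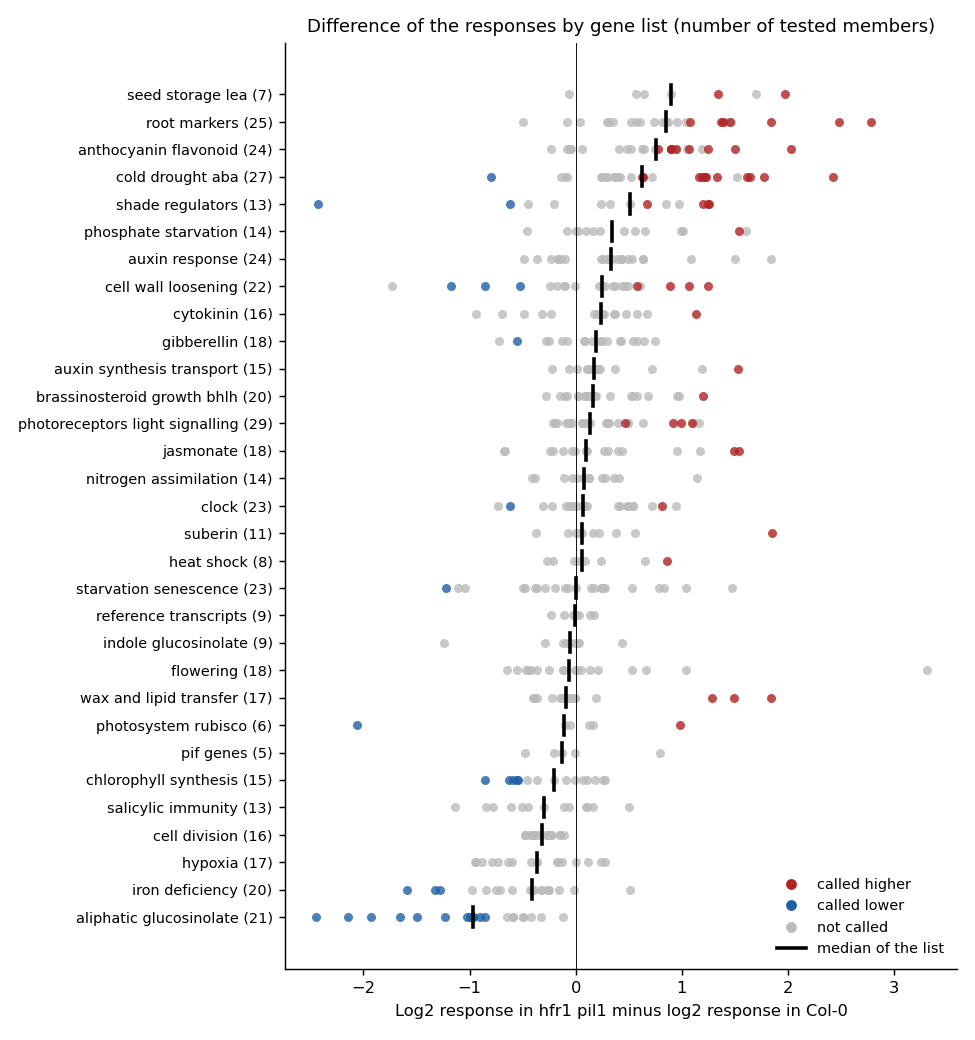
The horizontal axis gives the log2 response in hfr1 pil1 minus that in Col-0, and each dot is a tested member of 1 of 31 gene lists. Dots are red if called higher, blue if called lower and grey if not called. A black bar gives the list's median over all its members at the filter, tested or not, which for photosystem and Rubisco genes are 25 against 6 dots. The lists run from aliphatic glucosinolates with a median of -0.97 at the bottom to seed and late embryo genes with 0.90 at the top.

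Of the remaining loci ranked highest, OCT1 (AT1G73220), a carnitine transporter gene, had 2.35 ± 0.41 SE, the calcium and cation exchanger gene CAX7 (AT5G17860) had 1.85 ± 0.22 SE, the triterpene oxidase gene CYP716A2 (AT5G36140) had 2.24 ± 0.46 SE, and SDR4 (AT3G29250), a short-chain dehydrogenase gene, had 1.76 ± 0.28 SE. MLP328 (AT2G01520), of the latex protein family, stood at 1762 and 3176 normalized counts in white-grown Col-0, 2238 and 1951 in Col-0 under low R:FR, 685 in white-grown hfr1 pil1 and 2617 in hfr1 pil1 under low R:FR (2.16 ± 0.33 SE, edgeR, Benjamini-Hochberg adjusted p = 0.00425) and was not called by DESeq2. Of those ranked lowest, BCB (AT5G20230), a blue copper protein gene, rose in Col-0 and fell in hfr1 pil1, from 62.0 and 71.9 to 133 and 118 normalized counts in Col-0, and from 116 to 42.9 in hfr1 pil1 (-2.36 ± 0.30 SE, edgeR, Benjamini-Hochberg adjusted p = 0.00167). CRK30 (AT4G11460), a receptor-like kinase gene, had -1.81 ± 0.40 SE. HR4 (AT3G50480; -1.48 ± 0.35 SE), related to a mildew resistance gene, and EMB2261 (AT3G49170; -1.47 ± 0.35 SE), a pentatricopeptide repeat protein gene, both lost the call without Col-0 low R:FR replicate 2.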

How the data were processed

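The authors sequenced RNA of 4 labelled samples, and the submitters' processing notes name Bowtie and TAIR10. Versions are blank there, and the counting tool is not given in the sources used here. The deposited signal values are read counts divided by 1 factor per library, as the values show, and both Col-0 columns are means per the file headers. All 33558 values of each mutant column were whole multiples of 1 step within 0.01 reads, and each Col-0 value was solved as a sum of whole multiples of 2 steps, so that whole reads of 6 libraries were recovered for 33461 loci. The split failed for 72 and 83 loci, which hold 20.4% and 18.0% of the Col-0 white light and low R:FR columns. The plan had expected 1 deposited value per group, so the unit and the number of libraries differ from it.

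Differences are of log2(value + 10.8), which understates the change of low loci. edgeR 4.0.16 in R 4.3.3 fitted genotype, light and their interaction to 20019 loci with the authors' size factors (0.723 to 1.63), with 2 residual and 10.8 prior degrees of freedom and a biological coefficient of variation of 0.0525. SE is approximate, from the size of the difference and the square root of F. DESeq2 1.42.0, other filters, offsets and scalings, and leaving out single Col-0 libraries were alternatives. The fit was tested on simulated data.

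The rule, the 31 gene lists (603 entries, 8 of them dropped for another name at that locus in the reference) and the choice of tests were made with earlier results of these data known. Named genes are HFR1, PIL1, the 20 highest and 20 lowest differences among called nuclear loci that have a symbol and average 54 or more normalized counts, and up to 4 called members of each list and form, 81 in all. Other genes named beside a count were picked with their values in view. Promoters came from the RefSeq genome.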

Additional observations from a re-analysis of the deposited data

Results flagged for a closer look

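The response to low R:FR differed between the genotypes, by the test of the difference itself, at 763 loci in edgeR. Of the 81 named genes, which edgeR called in every case, DESeq2 with the authors' size factors called 28, did not call 20 and gave no adjusted p for 33. The 28 are listed here with edgeR's log2 difference of the responses, hfr1 pil1 minus Col-0.

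Among shade, wall and hormone genes these were HFR1 (-2.87), HB-2 (1.25), XTH17 (1.29), XTH9 (-1.18), ST2A (1.60), BT4 (-1.24) and EXL5 (-1.51). Among flavonoid, light-harvesting and chlorophyll genes they were TT4 (2.04), GSTF12 (1.81), LHB1B1 (-2.06), LHCB4.3 (1.05) and PORB (-0.86). Among glucosinolate genes and those of linked steps they were CYP79F1 (-2.53), BCAT4 (-2.23), MAM1 (-1.67), AK3 (-1.69) and TGG2 (-1.35). Among root, abscisic acid and iron genes they were CYP708A2 (1.85), CYP705A5 (1.46), KIN1 (2.47), RAB18 (1.68), HIS1-3 (1.89) and IRT1 (-1.28). The others were FAR1 (1.88), LTP2 (1.29), SDR4 (1.76), CDEF1 (-1.71) and DIN10 (-1.24). With its own size factors DESeq2 did not call IRT1 and SDR4. CYP708A2, KIN1, RAB18 and HIS1-3 were lowest in the hfr1 pil1 white light library, as was the summed level of the root markers. In Col-0 that sum was higher under low R:FR than in white light. There RAB18 and HIS1-3 rose as well, whereas CYP708A2 and KIN1 fell. The part of root RNA in these genes was not tested.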

How the results depend on the processing

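No paired analysis was possible because the labels give 1 sample per group and the recovered Col-0 libraries carry no number that ties them across lights. The 763 calls by edgeR (398 higher, 365 lower) became 817 with TMM normalization and 767 with 5 times the filter, and 1573 (827 higher, 746 lower) with no filter beyond 1 read. DESeq2 called 190 (82 higher, 108 lower) with the authors' size factors and 223 (97 higher, 126 lower) with its own, and gave no adjusted p to 248 and 203 of the 763. It gave an adjusted p to 6823 and 8375 of the 20019 loci, and shared 189 and 222 calls with edgeR. The cause of this gap was not tested. Leaving out 1 Col-0 library gave 522 to 1180 calls (283 to 653 higher, 239 to 527 lower). The highest count came without Col-0 white light replicate 1 and the lowest without Col-0 low R:FR replicate 2, which shared 487 of the 763. None of these edgeR and DESeq2 fits turned the sign of any of the 763. Of the 81 named genes 16 lost their call without Col-0 low R:FR replicate 2, and 1 to 4 without any other.

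The 474 loci past 2-fold (354 higher, 120 lower) became 967 (666 higher, 301 lower) with an offset of 1 normalized count and 150 (114 higher, 36 lower) with 5 times the offset. With 5 times the filter they became 303 (234 higher, 69 lower). A larger offset shrinks the differences of low loci, and a larger filter leaves those loci out. Rescaling columns to their mean total, or nuclear loci to 1 total, gave 488 and 491 and moved the median difference to 0.022 and 0.031. Among named genes the sign of the difference turned only in PIL1, to 0.34 with 5 times the offset. Low read numbers limit genes such as IAA29, ACS8 and FPF1, and each mutant group is 1 library, which no alternative could leave out.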

Other observations

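Neighbouring loci called in the same direction numbered 87 in 41 runs, of which 38 were pairs. Besides the thalianol genes they held a run of 4 loci on chromosome 5 (SIGE, SQP2, SQP1 and AT5G24155, with differences of 0.75, 1.62, 0.91 and 0.92), in which SQP1 and SQP2 are related to squalene epoxidases, and the pair PEN3 (2.04) and CYP716A2 (1.83) of triterpene synthesis. LSU1 (1.27) and LSU3 (1.08), induced by sulfur deficiency, formed another pair called higher. Reads of copies lying side by side may be mixed, which was not tested.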
